A study of Schizophyllum commune with 14 samples.

Results

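SC3 is a hydrophobin gene of the split gill mushroom Schizophyllum commune, and its transcript was followed through 5 stages of fruiting in 14 RNA libraries. It was taken as the transcript model named '2629919' in the files, which is 1 of 16319 models in the deposited count files and 1 of 14681 in the deposited expression table. The RefSeq gene reference for strain H4-8 lists the symbol SC3 under the locus tag SCHCODRAFT_02629632, a number 287 below that of the model. The same shift of 287 matched 14009 of the 14254 models in that range of numbers, and the next best shift matched 1180. The model is 712 bases long and the span of the gene in the reference is 979 bases.

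Hydrophobins are small secreted fungal proteins with a conserved pattern of cysteines that assemble into a film where water meets air. SC3 is the classic example: it is secreted at growing tips, lowers the surface tension of the wet substrate so that hyphae can grow out of it, and coats the aerial hyphae with a water-repellent layer. Other hydrophobins of this fungus, among them SC1, SC4 and SC6, are known from the fruiting dikaryon, and SC4 is known to line the air channels inside fruiting bodies.

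All libraries were made from poly(A) RNA of strain H4-8, from the dikaryon (the mated mycelium that can fruit) formed by the monokaryons H4-8a and H4-8b. Cultures on MM medium grew from a 5 mm plug for 5 days in darkness at 30 °C, and then for 10 days at 25 °C with 12 hours of light per day. Vegetative mycelium, stage 1 primordium (up to 2 mm), young fruiting body (5 to 7 mm) and fruiting body (fully expanded) had 3 biological replicates each, and stage 2 primordium (3 to 4 mm) had 2, numbered 2 and 3. The 3 vegetative mycelium libraries were read on a different flow cell from the 11 fruiting libraries, so the flow cell cannot be told apart from the stage in comparisons with vegetative mycelium. Whole stages were harvested, so fewer aerial hyphae in a sample and less SC3 RNA per hypha cannot be told apart.

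Unique reads (reads with 1 placement) numbered between 13708387 and 24052213 per library. Stage 2 primordium replicate 2 stood apart in its scaling factor, 0.548 against 0.86 to 1.21 in the other libraries, and in the share of its reads in its 50 most abundant models, 31.5% against 13.3% to 27.3%. Young fruiting body replicate 2, which matters for SC3, had 15777814 unique reads, a factor of 1.09 and a mean Spearman correlation of 0.956 with the other young fruiting body libraries, against 0.96 and 0.969 for replicates 1 and 3. Fruiting body replicate 1, which had the lowest SC3 level, correlated less with its stage, at 0.941 against 0.966 for each of replicates 2 and 3. SC3 had 0 reads with more than 1 placement in each of the 14 libraries, so no SC3 read was shared with another model. Levels are counts-per-million values (CPM), that is unique reads scaled to library totals with TMM factors. As a check of the fruiting stages, SC6, whose match to a model is less certain, was at 0.458 ± 0.284 CPM (SD, n = 3) in vegetative mycelium. It was at 233 ± 169 CPM in stage 1 primordium (n = 3) and 2.07 ± 0.194 CPM in stage 2 primordium (n = 2). Young fruiting body had 17.6 ± 23.6 CPM and fruiting body 79.8 ± 72.7 CPM (n = 3 each). The check did not hold for stage 2 primordium, where the edgeR adjusted p against vegetative mycelium was 0.292. By library, SC6 was at 2.21 and 1.93 CPM in stage 2 primordium replicates 2 and 3. In replicates 1, 2 and 3 it was at 44.8, 4.99 and 3.01 CPM in young fruiting body, and 3.12, 88.4 and 148 CPM in fruiting body. Young fruiting body replicates 2 and 3 and fruiting body replicate 1 thus lay near stage 2 primordium. SC1 and SC4 were not analysed here.

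SC3 transcripts were most abundant in stage 1 primordium and least abundant in the mature fruiting body. The level was 1570 ± 1140 CPM in stage 1 primordium (SD, n = 3), 645 ± 593 in young fruiting body (n = 3), 230 ± 85.7 in vegetative mycelium (n = 3), 84.3 ± 71.1 in stage 2 primordium (n = 2) and 10.3 ± 6.58 in fruiting body (n = 3). The order of the medians was the same, at 969, 742, 192, 84.3 and 11.1 CPM. By the means of log2 CPM young fruiting body, at 7.67, came after vegetative mycelium, at 7.79. Over the single libraries the highest level was 870 times the lowest, and 91 of 14302 genes tested, or 0.636%, had a wider span on the log2 scale.

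In vegetative mycelium SC3 was at 328, 170 and 192 CPM in replicates 1, 2 and 3, from 6819, 4162 and 4474 reads. Replicate 1 was the highest of the 3. By the deposited TPM, a level scaled to transcript length and library total, these libraries had 687, 372 and 400, which placed SC3 at ranks 234, 458 and 409 among the 16319 models.

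In stage 1 primordium SC3 was at 2890, 969 and 852 CPM in replicates 1, 2 and 3, from 52880, 18897 and 14038 reads. All 3 libraries lay above all 3 of vegetative mycelium, and replicate 1 alone was 3.39 times replicate 3. By the deposited TPM values of 4690, 1630 and 1190, SC3 was the 11th, 65th and 89th most abundant of the 16319 models. In replicate 1 it took 0.286% of all unique reads.

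In stage 2 primordium SC3 was at 34 and 135 CPM in replicates 2 and 3, from 293 and 2160 reads. Both libraries lay below every library of stage 1 primordium and of vegetative mycelium. The lower value came from the library with the scaling factor of 0.548, and without scaling factors the gap between the libraries was wider, 0.00187% against 0.0121% of unique reads.

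In young fruiting body SC3 was at 742, 9.69 and 1180 CPM in replicates 1, 2 and 3, from 12371, 167 and 16948 reads. Replicates 1 and 3 lay near or within the range of stage 1 primordium, whereas replicate 2 lay within the range of the fruiting body libraries. The gap of replicate 2 to the nearer of the others was 75.7-fold (on the log2 CPM scale with a prior count of 2), and it ranked 1 among the same gaps of 14302 genes. The ranks of SC3 by deposited TPM were 105, 7006 and 47. Over all genes, replicate 2 had a mean Spearman correlation of 0.935 with the fruiting body libraries, against 0.956 and 0.948 for replicates 1 and 3. With vegetative mycelium it was 0.861, against 0.832 and 0.852.

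In fruiting body SC3 was at 3.32, 16.4 and 11.1 CPM in replicates 1, 2 and 3, from 83, 281 and 278 reads. All 3 libraries lay below every library of vegetative mycelium, stage 1 primordium and stage 2 primordium. Counting error was small beside the spread between replicates even at this depth, with a 95% exact Poisson interval of 2.64 to 4.11 CPM in replicate 1 and of 8.27 to 11.3 CPM in young fruiting body replicate 2. These intervals cover counting error only. By deposited TPM, 5.45, 30.9 and 20.3, SC3 ranked 10368, 5199 and 6868.

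**Figure D1:**
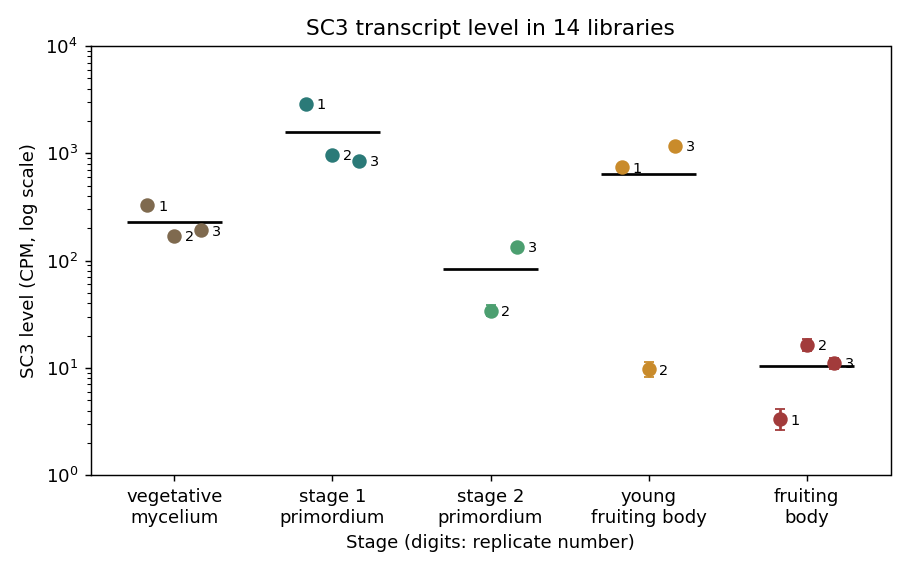
SC3 level in CPM on a log axis for each of the 14 libraries, by stage. Points are libraries with their replicate number, bars on points are 95% exact Poisson intervals for counting error, and horizontal lines are stage means. The 3 stage 1 primordium libraries lie at 852 to 2890 CPM and the 3 fruiting body libraries at 3.32 to 16.4 CPM, with young fruiting body replicate 2 at 9.69 CPM.

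The replicates of a stage differed more in SC3 than in most genes. For vegetative mycelium the SD of log2 CPM was 0.50, against a median of 0.13 over all genes tested. For the primordia it was 0.97 against 0.23 at stage 1 and 1.40 against 0.42 at stage 2. It was 3.81 against 0.35 in young fruiting body and 1.18 against 0.34 in fruiting body. In young fruiting body 3 of the 14302 genes had a larger SD, and in the other stages between 2.59% and 5.89% of genes did.

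The tests between stages did not use the spread of each stage, but a shared estimate per gene over all stages. The SE was 1.11 for young fruiting body and 1.16 for stage 1 primordium against vegetative mycelium, although young fruiting body varied most. The SEs and intervals of young fruiting body therefore do not show its own wider spread, which enters every comparison through the shared estimate. Without young fruiting body replicate 2, stage 1 primordium against vegetative mycelium stayed at 2.77. Its edgeR adjusted p went from 0.0718 to 0.00626, and that of fruiting body against stage 1 primordium from 0.00292 to 0.000115. In a model of stage over all libraries (edgeR quasi-likelihood test, Benjamini-Hochberg adjusted over 14302 genes, called below 0.05), SC3 differed among the 5 stages (F = 8.4, adjusted p = 0.00464), as did 69.4% of all genes. It also differed among the 4 fruiting stages, which shared a flow cell (F = 10.5, adjusted p = 0.00612), as did 48.6% of all genes. Both calls held in each of the 21 alternative settings tried.

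The fall to the mature fruiting body was the firmest of the 10 comparisons of 2 stages. SC3 was lower in fruiting body than in stage 1 primordium by a log2 fold change of -7.26 ± 1.43 (SE; 153-fold; edgeR adjusted p = 0.00292), in 3 of 3 libraries, where 33.9% of all genes were called. It was lower in fruiting body than in vegetative mycelium by -4.49 ± 1.26 (22.5-fold; edgeR adjusted p = 0.0128), again in 3 of 3 libraries, where 42.3% of all genes were called. Both calls held in all 22 alternatives. Leaving out stage 1 primordium replicate 1 moved the first value to -6.50.

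SC3 was also called lower in stage 2 than in stage 1 primordium, by -4.22 ± 1.48 (18.6-fold; edgeR adjusted p = 0.0382), with both stage 2 libraries below all 3 stage 1 libraries and 41.5% of all genes called. This call ended in 9 of 22 alternatives. Among them were the fits that left out stage 1 primordium replicate 1 (-3.43) or 2 (-4.47), stage 2 primordium replicate 2 (-3.55) or 3 (-5.47), or vegetative mycelium replicate 2 or 3 (-4.22 each).

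SC3 was called lower in fruiting body than in young fruiting body, by -5.98 ± 1.35 (63-fold; edgeR adjusted p = 0.0367), where 3.54% of all genes were called. The libraries overlapped, since young fruiting body replicate 2 lay below fruiting body replicates 2 and 3. The call ended in 11 of 22 alternatives, among them the fits without young fruiting body replicate 3 (-5.20), without each fruiting body library (-5.55, -6.49 and -6.04) and without each vegetative mycelium library (-5.98 each). Without young fruiting body replicate 2 the value was -6.56 and the call held.

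None of the 4 pairs of stages next to each other in the order of levels was called. Stage 1 primordium and young fruiting body differed by -1.28, with a 95% interval of -3.69 to 1.12 for young fruiting body over stage 1 primordium (edgeR adjusted p = 0.473; 11% of all genes called). Young fruiting body over vegetative mycelium was at 1.49, with an interval of -0.93 to 3.91 (adjusted p = 0.343; 33% of all genes called). Without young fruiting body replicate 2 it was called, at 2.07 (adjusted p = 0.0445), and in the deposited log2 RPKM values, where the mean is taken over logs, its direction turned to -0.11. Stage 2 primordium over vegetative mycelium was at -1.45, with an interval of -4.24 to 1.34 (adjusted p = 0.383; 43.6% of all genes called), although both stage 2 libraries were lower. Leaving out stage 2 primordium replicate 2 gave -0.80, and replicate 3 gave -2.72. Fruiting body over stage 2 primordium was at -3.04, with an interval of -5.75 to -0.33 (adjusted p = 0.0903; 24.3% of all genes called), with 3 of 3 fruiting body libraries lower, and leaving out young fruiting body replicate 2 gave a call (adjusted p = 0.0141). Leaving out stage 2 primordium replicate 2 gave -3.73, and replicate 3 gave -1.80.

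In the remaining pairs SC3 was not called either. Stage 1 primordium over vegetative mycelium was at 2.77 ± 1.16, with an interval of 0.24 to 5.30 (edgeR adjusted p = 0.0718; 44% of all genes called), and 3 of 3 libraries were higher. Without young fruiting body replicate 2, a library of neither stage, it was called at the same value (adjusted p = 0.00626), and without stage 1 primordium replicate 1 it was 1.97. Young fruiting body over stage 2 primordium was at 2.93, with an interval of -0.07 to 5.94 (adjusted p = 0.186; 8.71% of all genes called) and overlapping libraries.

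With no scaling factor the median log2 change of all genes moved by 0.07 to 0.71, most in the 4 comparisons with stage 2 primordium (0.41 to 0.71). SC3 kept its direction in all 10 comparisons, and its largest move was from -1.45 to -1.98, for stage 2 primordium against vegetative mycelium. The share of called genes that were higher in the first stage went from 55.7% to 23.3% in that comparison, from 53.5% to 32.6% for stage 2 against stage 1 primordium, from 41.7% to 87.8% for young fruiting body against stage 2 primordium, and from 48% to 87.6% for fruiting body against it. It went from 51.3% to 32.1% for stage 1 primordium and from 57.4% to 43.4% for young fruiting body against vegetative mycelium. Against stage 1 primordium it went from 61.9% to 78.9% for young fruiting body and from 57.4% to 75.8% for fruiting body, and it went from 73.9% to 85.3% for fruiting body against young fruiting body.

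**Figure D2:**
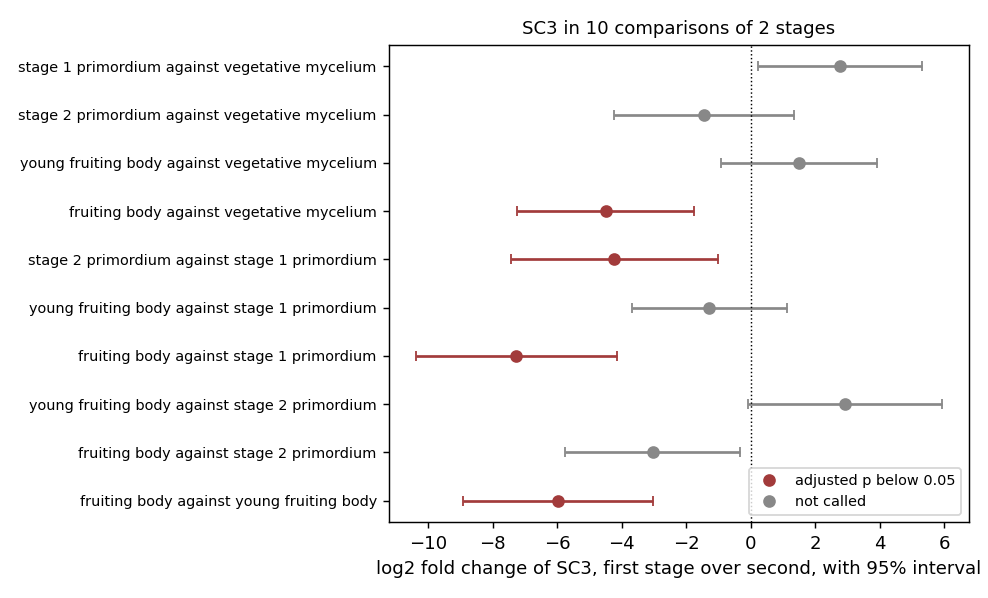
Log2 fold change of SC3 (first stage over second) with its 95% interval in the 10 comparisons of 2 stages, red where the edgeR adjusted p was below 0.05. The 4 called comparisons, at -4.22 to -7.26, are all falls.

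**Figure D3:**
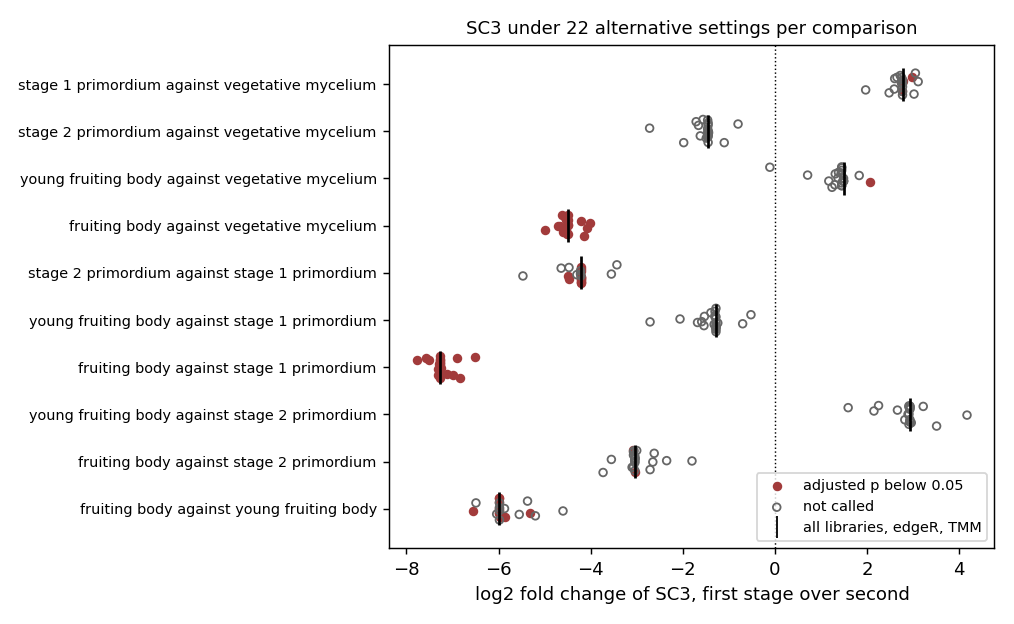
Log2 fold change of SC3 in each comparison under 22 alternative settings (points, red where called), with the value from all libraries as a black line. Fruiting body against stage 1 primordium stays between -7.77 and -6.50 and is called in every setting shown.

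Among the 7 hydrophobins with a matched model, SC3 had the highest level per transcript length in most libraries outside the mature fruiting body. Of 13 hydrophobin symbols sought, 7 had a matched model: SC3, SC6, Hyd3, Hyd4, Hyd5, Hyd8 and Hyd9, of which SC6 was matched by an older locus tag and is less certain. On the RPKM scale, which is CPM per kilobase of transcript, SC3 made up 97.4%, 96.2% and 95.8% of the summed level of these 7 in replicates 1, 2 and 3 of vegetative mycelium. In stage 1 primordium it made up 88.5%, 38.5% and 72.4% and was still the highest of the 7 in each library. In stage 2 primordium its share was 8.14% and 55.6%, in young fruiting body 75.5%, 19% and 94.6%, and in fruiting body 1.14%, 5.35% and 2.04%.

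Which of these 7 hydrophobins led in place of SC3 differed between libraries. The highest was Hyd5 in stage 2 primordium replicate 2, at 395 RPKM, and Hyd4 in young fruiting body replicate 2, at 33.1 RPKM. In fruiting body it was Hyd8 in replicate 1 (240 RPKM), SC6 in replicate 2 (159 RPKM) and Hyd4 in replicate 3 (293 RPKM). SC3 ranked 4th or 5th of the 7 in the fruiting body libraries.

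**Figure D4:**
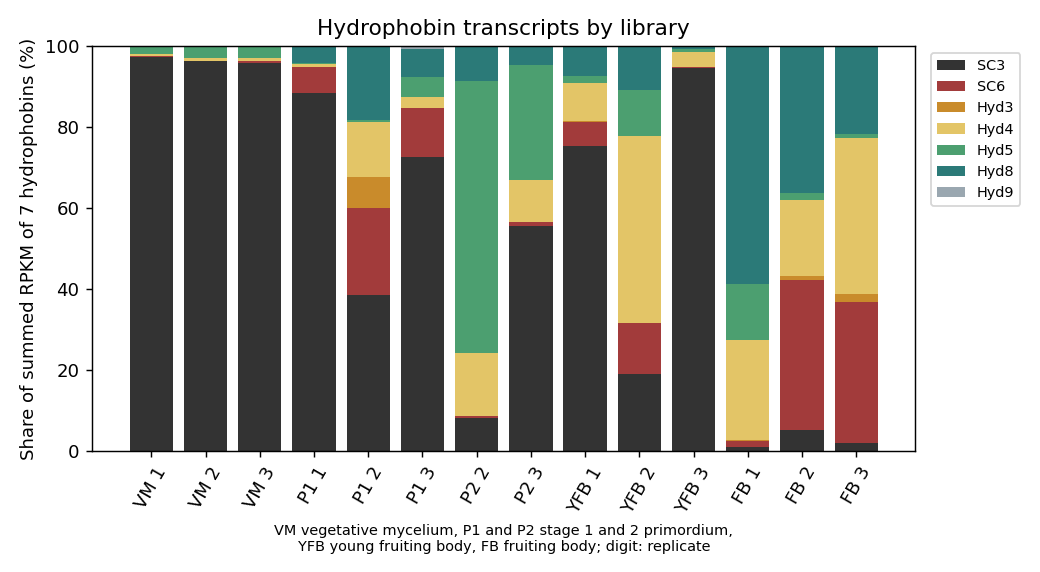
Share of each of 7 hydrophobins in their summed RPKM, in percent, for each of the 14 libraries. SC3 (black) makes up 95.8% to 97.4% in vegetative mycelium (VM) and 1.14% to 5.35% in fruiting body (FB).

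In the mature fruiting body against vegetative mycelium Hyd4, Hyd8 and SC6 rose, SC3 fell and Hyd3, Hyd5 and Hyd9 were not called, beside 24.4% of all genes that rose and 17.9% that fell. The median log2 change of the 6 members with reads in either stage was 5.96, against 0.07 over all genes. SC6 was at 79.8 ± 72.7 CPM in fruiting body and Hyd8 at 208 ± 50.7 CPM (SD, n = 3 each), against 0.458 ± 0.284 and 0.198 ± 0.149 CPM in vegetative mycelium. From young fruiting body to fruiting body SC3 fell and none of the other 6 was called, beside 2.62% of all genes that rose and 0.923% that fell (median 1.62 over 6 members, 0.01 over all genes), a count of 1 that was 0 to 2 over all settings. From stage 1 primordium to fruiting body SC3 and Hyd9 fell, beside 19.5% and 14.5% of all genes rising and falling (median -1.55 over 7 members, 0.04 over all genes). DESeq2 called 1 of the 7 there, and the count was 1 to 3 over all settings.

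In stage 2 against stage 1 primordium SC3, SC6, Hyd3, Hyd8 and Hyd9 fell and Hyd5 rose, beside 22.2% of all genes that rose and 19.3% that fell (median -4.22 over 7 members, 0.04 over all genes). DESeq2 called 3 of the 7 there, and over all settings the count of called members ranged from 0 to 6. Hyd9 had 0 reads outside stage 1 primordium and Hyd3 had 0 in stage 2 primordium, and both entered these medians at the bound that 3 reads over the stage give. Hyd9 could pass the filter on low counts only through stage 1 primordium. Its direction in comparisons with that stage was therefore fixed in advance. The counts of called members include it.

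The remaining comparisons moved the other hydrophobins without a call for SC3. Hyd3, Hyd4, Hyd8, Hyd9 and SC6 rose in stage 1 primordium against vegetative mycelium, beside 22.5% of all genes (21.4% fell). DESeq2 called 4 of the 7 there, and the count was 4 to 7 over all settings. Hyd3 was high in 1 library of stage 1 primordium, at 1.69, 90.9 and 0.243 CPM in replicates 1, 2 and 3. Against the same mycelium Hyd4, Hyd5 and Hyd8 rose in stage 2 primordium, beside 24.3% of all genes (19.3% fell), and Hyd4, Hyd8 and SC6 rose in young fruiting body, beside 18.9% (14.1% fell). Hyd9 fell in young fruiting body against stage 1 primordium, beside 4.18% of all genes (6.8% rose), and Hyd5 fell in young fruiting body against stage 2 primordium, beside 5.08% (3.64% rose). Between fruiting body and stage 2 primordium SC6 rose, beside 11.6% of all genes, and Hyd5 fell, beside 12.6%. Over all settings the count of called members was 0 to 3 in young fruiting body against stage 1 primordium, 0 to 1 in young fruiting body against stage 2 primordium (0 by DESeq2) and 0 to 3 in fruiting body against stage 2 primordium.

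Of the regulators of fruiting, 6 of 10 symbols sought had a model: the zinc finger genes c2h2, Fst3, Fst4 and Gat1, Bri1 with its ARID/BRIGHT domain, and WC1, of the blue light receptor. Where the fall of SC3 was deepest, in fruiting body against stage 1 primordium, c2h2, Fst4, Gat1 and Bri1 fell too (4 of 6, with 2 to 5 called over all settings; median -1.0, 0.04 over all genes), beside 14.5% of all genes that fell and 19.5% that rose. Fst4 was at 185 ± 65.8 CPM in fruiting body and 367 ± 47.7 CPM in stage 1 primordium (SD, n = 3 each). Bri1 was at 42.6 ± 16.3 and 86 ± 11.3 CPM. Fruiting body replicate 1 was the lowest for both, with 109, 228 and 217 CPM for Fst4 in replicates 1, 2 and 3. Bri1 had 23.8, 51.6 and 52.5 CPM there. In stage 2 against stage 1 primordium c2h2, Fst4, Gat1 and Bri1 fell and WC1 rose (median -0.81), beside 19.3% of all genes that fell and 22.2% that rose. The count of 5 called regulators there was 2 to 5 over all settings. Against vegetative mycelium, c2h2 and WC1 rose and Gat1 fell in fruiting body (3 of 6, median 0.05), where 42.3% of all genes were called, a share near that of the list. Against young fruiting body, edgeR called 0 of 6 in fruiting body (0 at an unadjusted p below 0.05, and 0 by DESeq2), with a median of -0.31, where 3.54% of all genes were called. These comparisons share libraries with each other.

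The likeness of each gene's profile to that of SC3 was measured by Pearson's r of log2 CPM over the 14 libraries, as a description. Of 14301 other genes 44 reached 0.8 and 0 reached 0.9. Among the regulators Fst4 was at 0.713 (rank 165), Bri1 at 0.65 (rank 362), Fst3 at 0.421, Gat1 at 0.359, c2h2 at 0.281 and WC1 at -0.355. After the stage means were taken out, r was only 0.28 for Fst4 and 0.219 for Bri1. The other hydrophobins lay between -0.155 (Hyd4) and 0.535 (Hyd9, which had no reads in most libraries).

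The highest likeness over the 14 libraries was that of SCHCODRAFT_02621085, with r = 0.881. After the stage means were taken out its r was 0.88, and the highest r of any other gene with SC3 was 0.973. SC3 deviated most from its stage mean in young fruiting body (SD of log2 CPM 3.81), so the split there is not separate support for this r. SCHCODRAFT_02621085 was at 355, 9.46 and 501 CPM in young fruiting body replicates 1, 2 and 3, the same split as SC3. Its gap of 37.1-fold was the next after that of SC3. Its stages differed from those of SC3 elsewhere: vegetative mycelium had 400 ± 40.6 CPM, close to the 451 ± 331 CPM of stage 1 primordium (SD, n = 3 each), and fruiting body had 38.9 ± 43.5 CPM (n = 3). It fell in fruiting body against stage 1 primordium by 3.54 on the log2 scale (edgeR adjusted p = 0.0356).

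The next 4 genes were SCHCODRAFT_01158360 (r = 0.881), SCHCODRAFT_02590498 (0.879), SCHCODRAFT_01166919 (0.879) and SCHCODRAFT_02686310 (0.873). Their highest stage mean was in stage 1 primordium and their lowest in fruiting body, as for SC3, but vegetative mycelium or stage 2 primordium took another place in the order for some of them. Their span was far smaller, for example 24.4 ± 4.93 CPM in stage 1 primordium and 6.39 ± 0.387 CPM in fruiting body for SCHCODRAFT_01158360 (SD, n = 3 each). The profiles most opposed to SC3 were those of SCHCODRAFT_02630133 (-0.896), SCHCODRAFT_01033891 (-0.887) and SCHCODRAFT_02637077 (-0.881). SCHCODRAFT_01033891 had only 2 to 30 reads per library, so its value rests on levels near the floor. The reference used here gives no name to any of these 8 genes.

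**Figure D5:**
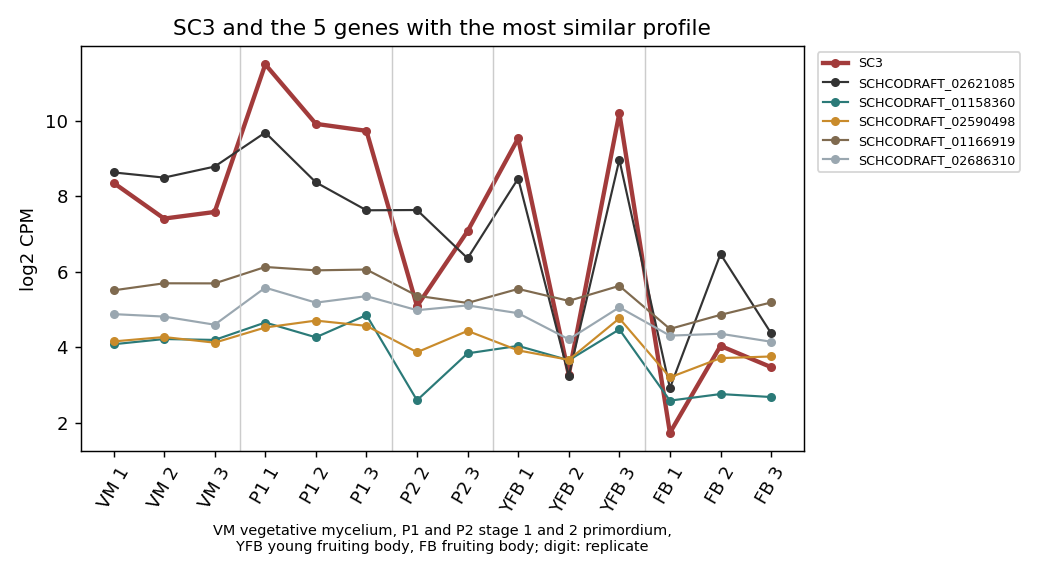
Log2 CPM of SC3 (thick red line) and of the 5 genes with the highest Pearson's r to it, for each of the 14 libraries in the order of the stages. SC3 and SCHCODRAFT_02621085 both drop in young fruiting body (YFB) replicate 2, to 9.69 and 9.46 CPM.

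The libraries are not stranded, so the genes beside SC3 in the reference were examined as well. Neither of the 2 neighbours overlaps the span of SC3. SCHCODRAFT_01311697 had stage means of at most 0.762 CPM. SCHCODRAFT_02505704 was at 18.4 ± 0.678 CPM in stage 1 primordium and 66.1 ± 18 CPM in fruiting body (SD, n = 3 each), where it rose by a log2 change of 1.85 ± 0.30 SE (edgeR adjusted p = 0.000671) while SC3 fell.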

How the data were processed

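Per the file headers, the deposited per-library files give raw counts per transcript model, as unique and as total gene reads, and TPM, scaled by the authors to transcript length and library total. The deposited series table gives log2 RPKM with a further factor per library. The aligner was not given in the sources used here. The submitters' processing notes list limma 3.18.13, edgeR 3.4.2 and R 3.0.2 with no role. Library preparation with the TruSeq kit leaves the strand unmarked. Here unique counts of all 14 libraries entered 1 model of stage, fitted by edgeR 4.0.16 (R 4.3.3) as a robust quasi-likelihood model with TMM factors, on the 14302 genes that passed filterByExpr. All 10 pairs of stages and 2 tests over stages were made, two-sided, with Benjamini-Hochberg adjustment over all genes in each. An SE is the size of the log2 fold change over the square root of F. CPM and RPKM levels use TMM factors. Log2 CPM for spreads and likeness has a prior count of 2. The 5 genes most like SC3, the 3 most opposed, 2 symbol lists and the neighbours were named by rule. A protein pattern planned for further hydrophobins was not used, since no protein table was at hand. SC3 and all lists were chosen with earlier results of these data known. The fit was tested on simulated data. Alternatives were DESeq2 1.42.0, limma 3.58.1 (weighted voom, and on the deposited log2 RPKM), no scaling factor, no filter, total reads, 2 stages alone, a replicate block and each library left out.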

Additional observations from a re-analysis of the deposited data

How the results depend on the processing

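Over 262 pairs of an SC3 result and an alternative, 234 kept direction and side of the threshold. Calls were lost for fruiting body against young fruiting body with no scaling factor (-5.87), on the 2 stages alone (-5.98), with the replicate block (-5.37) and on deposited log2 RPKM (-4.60), and for stage 2 against stage 1 primordium with weighted voom (-4.64), the replicate block (-4.21) and deposited log2 RPKM (-4.30). Calls were gained for stage 1 primordium against vegetative mycelium with DESeq2 (2.76), weighted voom (2.98) and the 2 stages alone (2.74), and for fruiting body against stage 2 primordium with DESeq2 (-3.09). Young fruiting body against vegetative mycelium turned to -0.11 on deposited log2 RPKM. Causes were not tested. With 1 library left out, values ranged from 1.97 to 3.11 for stage 1 primordium, -2.72 to -0.80 for stage 2 primordium, 0.71 to 2.07 for young fruiting body and -5.00 to -4.07 for fruiting body against vegetative mycelium. They were -5.47 to -3.43 for stage 2, -2.06 to -0.52 for young fruiting body and -7.77 to -6.50 for fruiting body against stage 1 primordium. Against stage 2 primordium they were 2.15 to 4.17 for young fruiting body and -3.73 to -1.80 for fruiting body, and -6.56 to -5.20 for fruiting body against young fruiting body. A lone stage 2 library was assumed to vary like the others. Without both young fruiting body replicate 2 and stage 2 primordium replicate 2, chosen after seeing the data, stage 1 primordium and young fruiting body against vegetative mycelium (2.75 and 2.03) and fruiting body against stage 2 primordium (-3.73) were called.

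Replicate numbers gave no sign of pairing: deviations of 3 of 26 same-numbered pairs correlated above 0.1 (15 of 52 others). The correlations overlapped widely, at -0.26 to 0.23 and -0.34 to 0.34, so the count cannot exclude pairing. Counts of called genes went, in fruiting body against young fruiting body, from 506 to 1351 with DESeq2 and to 0 in edgeR on the 2 stages alone (2253 at unadjusted p below 0.05) and without young fruiting body replicate 3 (2859). In young fruiting body against stage 2 primordium they went from 1246 to 3621 without stage 2 primordium replicate 3, and to 0 with weighted voom, on 2 stages alone and without stage 2 primordium replicate 2 (1933, 2139 and 1636 unadjusted). In fruiting body against stage 2 primordium they went from 3474 to 0 on 2 stages alone (3684 unadjusted), 52 without stage 2 primordium replicate 2 and 4803 without replicate 3. They went from 1571 to 558 without stage 1 primordium replicate 2 and to 4021 with weighted voom in young fruiting body against stage 1 primordium, from 5930 to 3069 for stage 2 against stage 1 primordium and from 6237 to 3955 for stage 2 primordium against mycelium, both without stage 2 primordium replicate 2. Against mycelium weighted voom called 9702 for stage 1 primordium (6286 by edgeR) and 9362 for fruiting body (6050).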

Other observations

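Few genes split within young fruiting body as SC3 did. At least 16-fold below both other young fruiting body libraries, replicate 2 held 7 of 14302 genes, SC3 and SCHCODRAFT_02621085 among them, and at least 16-fold above both it held 7 others. The genes below were picked after their values were seen. On the low side the next widest gap was that of SCHCODRAFT_02627934, which was at 186, 0.348 and 13.3 CPM in replicates 1, 2 and 3. SCHCODRAFT_02627923 was at 2620, 44.8 and 992 CPM, and it was at 3800 CPM on average in stage 1 primordium and 0.972 CPM in vegetative mycelium, so its level over the stages was unlike that of SC3 (r = 0.235). Of the 7 genes low in replicate 2, 4 lay there within the range of their fruiting body libraries, and 3 had all fruiting body libraries below all stage 1 primordium libraries. On the high side SCHCODRAFT_02490971 was at 105, 7290 and 240 CPM, and it was at 2470 CPM on average in vegetative mycelium. Of the other 6 hydrophobins, 5 were lower in replicate 2 than the mean of log2 CPM in replicates 1 and 3, by 1.16 to 2.27 on the log2 scale, against 6.58 for SC3, and Hyd9 had 0 reads in all 3. SC6 was at 44.8, 4.99 and 3.01 CPM in replicates 1, 2 and 3, so replicate 2 was not its lowest. The value of 2.27 was that of Hyd3, from 23, 0 and 1 reads. The 6 regulators differed by -0.22 (WC1) to 0.66 (c2h2).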
